A study of Mus musculus with 2 samples.

Results

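The genes described here carry the peptide-presenting machinery of MHC class II and its master switch: Cd74, H2-Aa, H2-Ab1, H2-Eb1, H2-DMa, H2-DMb1 and Ciita. They were chosen by name, and all 7 were found among the 32285 genes counted in single nuclei of mouse cardiac tissue. There were 2 libraries, made with the 10x Genomics 3′ v3 kit from male C57Bl6/J mice of 3.5 months. The CF-KI library had the genotype Tcf21-MerCreMer;Nlrp3-A350V/A350V, an activating change in the inflammasome sensor NLRP3 that the tamoxifen-inducible Cre switches on under the fibroblast gene Tcf21. The control library was Tcf21-MerCreMer;Nlrp3-WT/WT, so both carried the driver and both had tamoxifen injections. By the series' own description the altered allele was silent in cells without Cre. Each group had 1 library, and how many animals went into it is not given in the sources used here.

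MHC class II molecules hold peptides from swallowed proteins at the cell surface, where CD4+ T cells read them. An alpha chain (H2-Aa) and a beta chain (H2-Ab1) make I-A, and H2-Eb1 encodes the beta chain of I-E, whose alpha chain gene is inactive in C57BL/6 mice. Cd74, the invariant chain, blocks the groove until the vesicle is reached, and H2-DMa with H2-DMb1 form the DM exchange factor that swaps the last invariant chain fragment for a peptide. Ciita binds no DNA itself: it is recruited to the X and Y boxes of class II promoters, and its level sets whether a cell makes class II. In the heart, class II is known from dendritic cells, from monocytes and some of the macrophages they give rise to, and from B cells.

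To show where the letters of the X and Y boxes fall, 3 of the members' promoters are printed. They are RefSeq sequences on GRCm38.p6, each the 150 bases before the start, 5′ to 3′ in the direction of the gene. Capitals mark the Y box core (ATTGG or CCAAT), the X2 box core (TGACG or CGTCA) and an X1 box core (CNNAGNNAC or its reverse complement). H2-Aa lies on the minus strand at chr17:34287824-34287973, H2-DMb1 on the plus strand at chr17:34153041-34153190 and H2-Eb1 on the plus strand at chr17:34305717-34305866.
H2-Aa: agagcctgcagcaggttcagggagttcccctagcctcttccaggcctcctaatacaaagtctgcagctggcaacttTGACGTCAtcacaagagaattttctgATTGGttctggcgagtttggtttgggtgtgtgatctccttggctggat
H2-DMb1: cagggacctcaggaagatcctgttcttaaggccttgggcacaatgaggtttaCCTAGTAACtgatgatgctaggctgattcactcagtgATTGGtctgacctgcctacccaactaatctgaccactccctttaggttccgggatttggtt
H2-Eb1: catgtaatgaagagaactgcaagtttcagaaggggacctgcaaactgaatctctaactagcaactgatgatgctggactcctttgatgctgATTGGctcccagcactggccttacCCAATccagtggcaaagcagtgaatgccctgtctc
All 3 hold ATTGG in the same orientation, first base 48 (H2-Aa), 61 (H2-DMb1) and 59 (H2-Eb1) bases before the start. Of the 32851 promoter windows of 300 bases, 37.4% hold a Y box core on either strand, 20.8% an X2 core, 48.9% an X1 core and 3.79% all 3. The H2-Aa promoter has the 2 orientations of the X2 core overlapping, first bases 74 and 71 before the start. The H2-DMb1 promoter has the X1 core CCTAGTAAC from 98 bases before the start. Not wholly within the printed stretch, its window has further X1 cores, first bases 164 and 152 before the start and 3, 37 and 41 after it. The H2-Aa window has an X1 core 180 bases before its start, also outside the printed stretch, and so holds all 3 cores. H2-DMb1 and H2-Eb1 share the run AACTGATGATGCT of 13 bases, found in 3 of all windows, from 92 and 89 bases before their starts. One of the 2 windows listed for H2-DMa holds none of the cores, and the other has ATTGG 198 bases before its start and an X1 core 3 bases after it. These are matches of letters and describe the windows alone. Windows of 4 of the 7 members were used.

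The 2 libraries held 15077 (CF-KI) and 11257 (control) barcodes with 21603653 and 18040776 UMIs (unique molecules counted). After barcodes under 200 genes and called doublets were removed, 12681 and 10858 nuclei stayed. The libraries stood apart in quality: the median mitochondrial share was 14.2% against 3.46%, and Scrublet called 15.3% against 3.02% of barcodes doublets, with different automatic score limits (0.286 and 0.381). They shared 46 cell barcodes. A cluster of 126 airway epithelial-like nuclei was found in the control library and had 0 nuclei in CF-KI. Nlrp3 itself had 34 and 19 UMIs in all, 6 and 0 of them in fibroblast-like nuclei, too few to check the label, and counts do not tell the A350V allele from the wild type. Levels below are CPM, UMIs per 1000000 non-mitochondrial UMIs of a class. With 1 library a group there is no replicate check and no test, and the 95% intervals cover counting error only.

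The members' messages were densest in macrophage-like and B cell-like nuclei, with all 7 together at 3393 (CF-KI) and 5967 (control) CPM in the first and 6005 and 9708 in the second. Every other class with at least 50 nuclei in a library lay between 50.5 (erythroid-like, CF-KI) and 283 (adipocyte-like, control). Macrophage-like nuclei made up 4.2% of the CF-KI nuclei and held 48.7% of the library's 5907 member UMIs. In the control they made up 9.11% of nuclei and held 61.7% of 10988. B cell-like nuclei added 11.7% and 17.6%, from 0.584% and 1.40% of nuclei. The rest lay in the other classes, the largest parts in cardiomyocyte-like (14.6% and 5.81%) and fibroblast-like nuclei (10.6% and 6.14%).

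**Figure D1:**
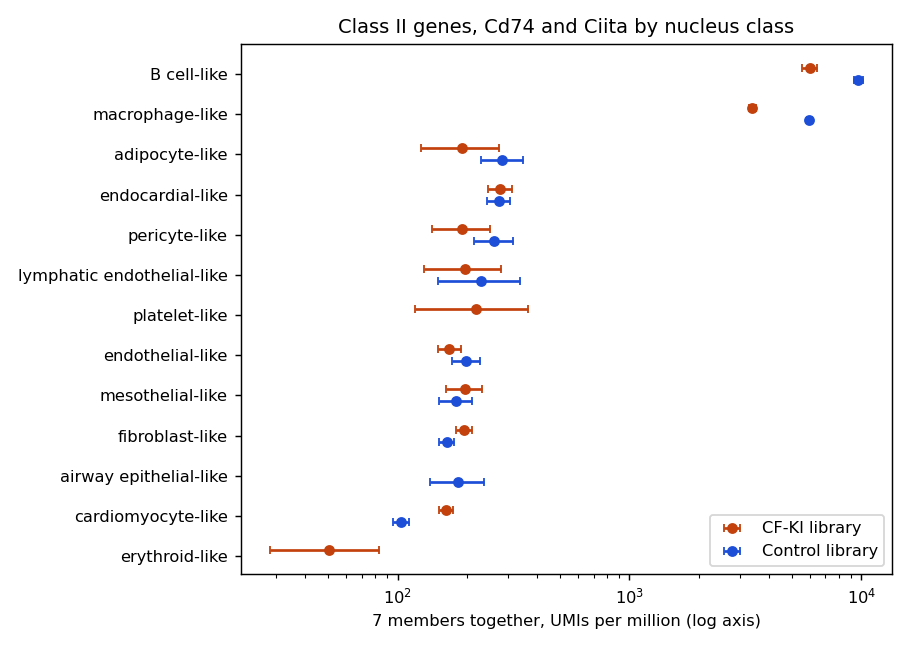
CPM of the 7 members together (log axis) in each nucleus class with at least 50 nuclei in a library; points are the libraries and bars exact 95% Poisson intervals for counting error. B cell-like and macrophage-like nuclei stand apart from the other classes, which stay at or under 283 CPM.

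The other classes lay close together. Endocardial-like nuclei had 277 (CF-KI) and 273 (control) CPM, pericyte-like 190 and 261, adipocyte-like 190 and 283, lymphatic endothelial-like 195 and 230, mesothelial-like 195 and 178, and endothelial-like 167 and 198. Fibroblast-like nuclei had 194 and 163, and cardiomyocyte-like nuclei, which should lack class II, 162 and 103. With these 8 classes ordered by level, neighbours overlapped in their counting intervals in both libraries, apart from cardiomyocyte-like below fibroblast-like nuclei in the control. In CF-KI the fibroblast-like interval (179 to 210) also lay above the cardiomyocyte-like one (151 to 173). RNA freed from broken cells enters every droplet, and in these non-immune classes (erythroid-like and platelet-like apart) the member level was 38.1% to 65.3% of the whole library's in CF-KI and 14.98% to 41.0% in the control. As a gauge of free RNA, the 12 cardiomyocyte markers were set against their whole-library level (for cardiomyocyte-like nuclei, markers of other classes). In fibroblast-like nuclei they stood at 53.4% and 27.1%, above the members' 45.8% and 23.6%. The members were above the gauge in 3 of 8 classes in CF-KI (cardiomyocyte-like 38.1% against 27.8%, mesothelial-like 46.0% against 39.9%, adipocyte-like 44.8% against 40.8%). In the control they were above it in 4 of 8: adipocyte-like (41.0% against 18.8%), cardiomyocyte-like (14.98% against 11.5%), endocardial-like (39.6% against 37.1%) and lymphatic endothelial-like (33.3% against 31.4%). In control adipocyte-like nuclei, 2 of 165 nuclei held 58 of the 95 member UMIs, and without them the level was 114 CPM. How much of these low levels is free RNA and how much the classes' own message was not tested further.

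The single genes were low outside the immune classes as well, with levels given as CF-KI and then control CPM. Cd74, the invariant chain, had 61.3 and 40.03 in cardiomyocyte-like, 73.5 and 58.5 in fibroblast-like, 93.6 and 85.3 in endocardial-like, 68.5 and 67.0 in pericyte-like, 79.8 and 51.3 in mesothelial-like, 60.5 and 150.2 in lymphatic endothelial-like and 61.0 and 95.4 in adipocyte-like nuclei. H2-Aa had, in the same order, 36.2 and 20.6, 44.8 and 30.2, 68.0 and 59.3, 49.4 and 62.3, 35.3 and 38.4, 40.3 and 26.5, and 33.9 and 62.6. Its partner H2-Ab1 had 25.2 and 20.9, 32.7 and 37.2, 49.2 and 58.4, 34.2 and 59.9, 38.4 and 40.8, 26.9 and 26.5, and 40.7 and 47.7. Neither I-A chain was on the same side of its control value in every class. H2-Eb1 had 26.7 and 15.6, 34.0 and 25.1, 48.3 and 43.1, 26.6 and 59.9, 33.8 and 31.5, 47.0 and 17.7, and 40.7 and 53.7. H2-DMa had 5.23 and 3.89, 5.87 and 6.52, 10.8 and 9.88, 7.61 and 7.18, 1.53 and 5.82, 13.4 and 8.83, and 6.78 and 5.96, on 1 to 28 UMIs each. For the last 2 genes many values rest on a few UMIs, and a count of 0 allows up to 3. H2-DMb1 had 3.55 and 1.13, 2.16 and 2.42, 4.92 and 8.98, 3.80 and 0, 1.53 and 8.15, 0 and 0, and 0 and 11.9. Ciita had 3.36 and 1.30, 1.23 and 3.14, 1.97 and 8.08, 0 and 4.79, 4.6 and 2.33, 6.72 and 0, and 6.78 and 5.96.

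In endothelial-like nuclei, the capillary lining that can make class II when interferon reaches it, the members reached 167 (CF-KI) and 198 (control) CPM, a log2 ratio of −0.24 (−0.50 to 0.02). Cd74 was 60.8 and 85.6, H2-Aa 36.8 and 30.05, H2-Ab1 37.3 and 32.8, and H2-Eb1 24.5 and 40.1. H2-DMa (6 and 4 UMIs), H2-DMb1 (3 and 2) and Ciita (5 and 4) were at 1.67 to 3.64 CPM. Only 4 members had the 20 UMIs needed for a call, and 1 of them (H2-Eb1, 44 UMIs in each library) was past 1.5-fold lower, where 14.8% of all genes tested were lower and 8.51% higher. Class I was high in the same nuclei: H2-K1, the classical class I heavy chain, stood at 937 and 1169 CPM and B2m, its light chain, at 1264 and 1246.

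Among macrophage-like nuclei as a whole (532 CF-KI, 989 control), the members together were 1.76-fold lower in CF-KI, a log2 ratio of −0.81 (−0.88 to −0.75). That value depends on which nuclei are counted as macrophage-like, and on 3 nuclei rich in class II, as described further on. Each gene is given first.

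Cd74 stood at 1337 CPM in CF-KI (1260 to 1417) and 2440 in the control (2350 to 2532), a log2 ratio of −0.87. For the I-A alpha chain H2-Aa, the values were 607 and 1029, a ratio of −0.76 (−0.91 to −0.61). Its partner chain H2-Ab1 had 725 and 1274, a ratio of −0.81 (−0.95 to −0.68). Both chains of I-A therefore stood lower in CF-KI by like amounts, with intervals that overlap. H2-Eb1, the I-E beta chain, had 541 and 858, a ratio of −0.67 (−0.83 to −0.50). Of the DM subunits, H2-DMa had 66.1 and 104 CPM (56 and 118 UMIs), a ratio of −0.65 (−1.14 to −0.18). H2-DMb1 had 63.7 and 117, a ratio of −0.88 (−1.36 to −0.41), and reads of this gene may be split with its near copy H2-DMb2. Ciita, the switch, had 54.3 and 146 (46 and 166 UMIs) and the lowest ratio of the 7, −1.43 (−1.93 to −0.95). All 7 of 7 members were past 1.5-fold lower, where 15.4% of 10206 genes tested in these nuclei were past that fold lower and 16.2% higher. The median log2 ratio was −0.81 over the members and −0.01 over all genes tested.

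**Figure D2:**
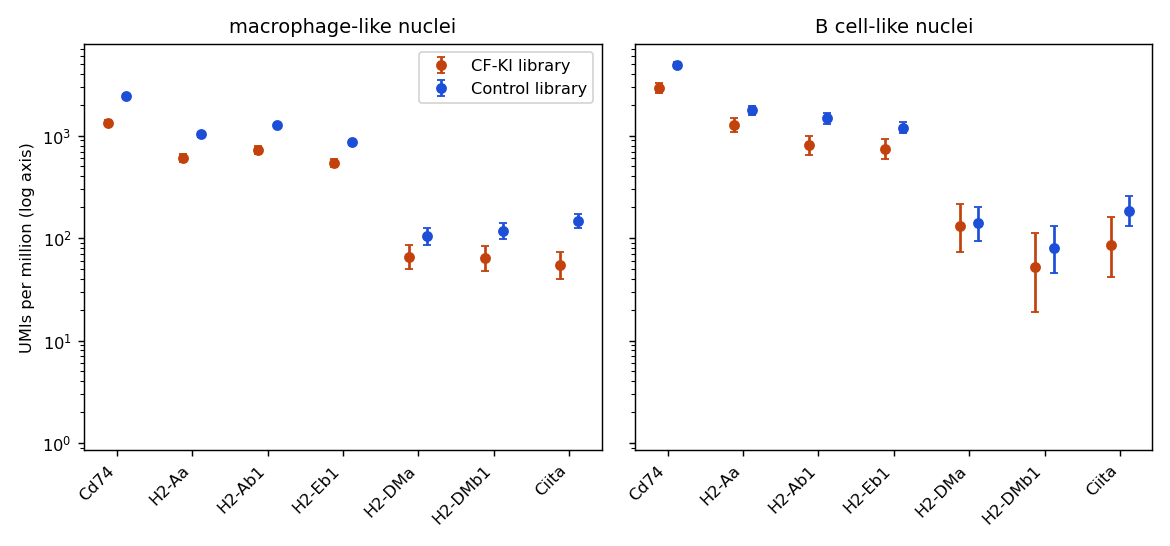
CPM of each member (log axis) in macrophage-like and B cell-like nuclei, by library, with exact 95% Poisson intervals. In macrophage-like nuclei every control point lies above its CF-KI point; levels of different genes are not compared, since counts from the 3′ end also follow how well each gene is captured.

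Markers of the nuclei themselves moved with this. All 14 macrophage markers were lower in CF-KI in the same nuclei, 12 of them past 1.5-fold, with a median log2 ratio of −1.04 and a summed level of 4980 against 10344 CPM. Of 12 cardiomyocyte markers, 10 were past 1.5-fold higher, with a median of 1.16 and a sum of 20023 against 8762. Endothelial markers were past that fold higher for 8 of 12. Per 100 UMIs of the 14 macrophage markers the members had 68.1 UMIs in CF-KI against 57.7 in the control, a log2 ratio of 0.24 (0.16 to 0.32), the opposite direction. Without the 3 nuclei of most member UMIs, all CF-KI, it was 46.3 against 57.7 (−0.32, −0.41 to −0.23), and without sub-cluster 4, described below, 26.3 against 37.1 (−0.50). As the gauge of free RNA, cardiomyocyte markers stood at 61.2% of their whole-library level in CF-KI macrophage-like nuclei and 39.0% in the control. These are relative levels, not measured shares of UMIs. The class also held sub-clusters led by cardiomyocyte genes, described below, so the gauge may count more than free RNA. With these levels taken as the free RNA share and subtracted, 8073 and 9344 member CPM were left, a log2 ratio of −0.21. The part of foreign RNA in the difference was not tested beyond these values.

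The share of macrophage-like nuclei with a member UMI gave the same direction as the level over the whole class. Without thinning it came to 55.5% (CF-KI) against 68.7% (control). With each nucleus thinned to 500 UMIs (32 and 35 shallower nuclei left out), it was 40.8% and 58.9%, a difference of −18.1 percentage points (−23.3 to −12.7). Cardiomyocyte-like nuclei thinned in the same way gave 8.23% and 6.03%. For Ciita alone, the thinned share was 3.20% and 8.70%. Median UMIs per macrophage-like nucleus were 1184 in CF-KI and 911 in the control.

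Members came together in single nuclei. At least 3 different members had a UMI in 24.1% (CF-KI) and 37.8% (control) of macrophage-like nuclei, in 40.5% and 54.6% of B cell-like nuclei, and in 0.141% and 0.395% of cardiomyocyte-like nuclei. The 37 CF-KI macrophage-like nuclei with a Ciita UMI held the other members at 12015 CPM (11385 to 12671), against 2002 in the 495 without one. This interval takes each UMI as independent, and values without the 3 nuclei of most member UMIs were not computed. The control had 15170 in 120 nuclei with Ciita and 4381 in 869 without. In B cell-like nuclei the gap was narrower, with 11856 against 5100 (CF-KI, 8 nuclei with Ciita) and 15638 against 7464 (control, 32). The macrophage-like nuclei with Ciita were also deeper, with a median of 1339 against 956 UMIs (CF-KI) and 875.5 against 848 (control).

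**Figure D3:**
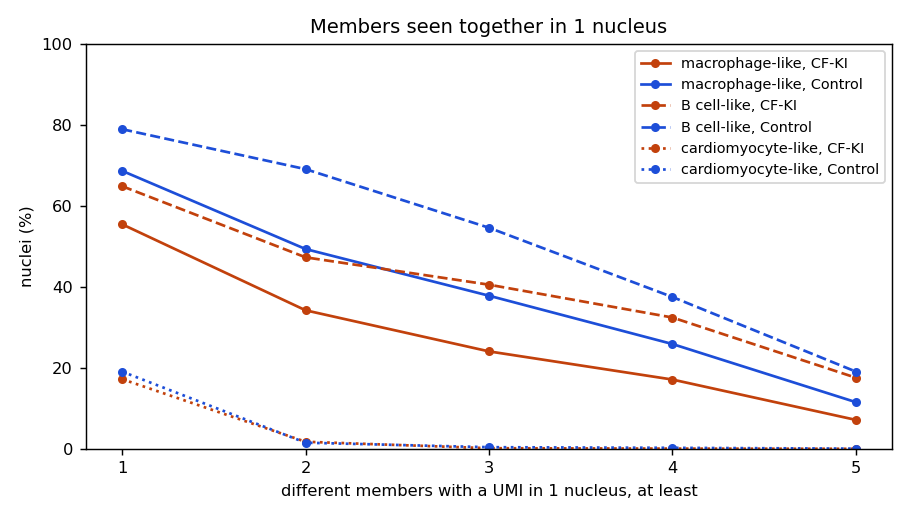
Percent of nuclei (y axis) in which at least 1 to 5 different members had a UMI (x axis), for macrophage-like (solid), B cell-like (dashed) and cardiomyocyte-like nuclei (dotted), by library. The macrophage-like and B cell-like lines stay well above the cardiomyocyte-like ones, which drop to under 1% from 3 members on.

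Clustered again without the members and the other listed genes, the macrophage-like and B cell-like nuclei split into 12 sub-clusters. Sub-cluster 4 was monocyte lineage-like, led by Ear2, Plac8 and Treml4, genes known from monocytes, with S100a4 and Lyz1 also among its leading genes. It had 46 CF-KI and 86 control nuclei, 8.65% and 8.70% of macrophage-like nuclei, yet 64.3% and 37.5% of their member UMIs. Its members stood at 17125 CPM in CF-KI (16353 to 17924) and 24276 in the control (23341 to 25239), a log2 ratio of −0.50 (−0.59 to −0.42). Markers of dendritic cells had 39 and 91 UMIs there, and which of these nuclei are dendritic cells was not tested.

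Single nuclei weighed heavily in that sub-cluster. The CF-KI nucleus richest in class II had 365 member UMIs, 2.39% of its non-mitochondrial UMIs, and the next 2 had 335 and 247. These 3 nuclei held 32.9% of the member UMIs of all CF-KI macrophage-like nuclei. The richest had UMIs of Batf3 and Itgax, and the second of Flt3, Cd209a, Batf3, Itgax and Klrd1. These genes mark dendritic cells and, for Klrd1, NK cells. In the 3 nuclei, markers of dendritic cells had 5, 10 and 2 UMIs. Those of the monocyte lineage had 25, 11 and 14, and those of macrophages 15, 20 and 23. The 3 were deep, with 16584, 9780 and 5681 UMIs, and what kind of cell each is was not tested. In the control the richest nucleus had 204 member UMIs, 3.01% of that library's macrophage-like total, with UMIs of Flt3, Cd209a and Clec10a. The next control nucleus had 176 member UMIs and 0 UMIs of the dendritic cell markers. Without the richest CF-KI nucleus the log2 ratio over macrophage-like nuclei was −0.98, and without all 3 it was −1.34 (−1.41 to −1.27), while that within sub-cluster 4 was −1.07.

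Within sub-cluster 4 the members' log2 ratios ran from −1.57 to −0.20. H2-Aa had 3002 and 3441 CPM, a log2 ratio of −0.20 (−0.42 to 0.02), within counting error. H2-Ab1 had 3688 and 5859, a ratio of −0.67 (−0.85 to −0.48), so that the counting intervals of the 2 I-A chains did not overlap. These intervals take each UMI as independent, while the 3 richest nuclei held 947 of the 1848 CF-KI member UMIs here. Ratios of single members without those nuclei were not computed, so whether the members differ was not tested. Cd74 had 6811 and 10102, a ratio of −0.57 (−0.71 to −0.43), and H2-Eb1 2826 and 3508, a ratio of −0.31 (−0.54 to −0.09). Ciita had 158 and 468, from 17 and 49 UMIs, a ratio of −1.57 (−2.46 to −0.75). H2-DMa and H2-DMb1 had 36 and 33 UMIs in CF-KI, with ratios of −0.30 (−0.98 to 0.37) and −0.67 (−1.35 to −0.01). Per UMI of the monocyte lineage markers the summed ratio was −0.23 (−0.43 to −0.04).

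Sub-cluster 1 was macrophage-like, led by Folr2, Lyve1 and Timd4, genes of the resident macrophages that line vessels. Its 49 CF-KI and 237 control nuclei had the members at 1947 and 4371 CPM, a log2 ratio of −1.17 (−1.48 to −0.86). Cd74 was 1004 against 1980 and H2-Ab1 287 against 901. Ciita had 1 and 12 UMIs, and H2-DMb1 1 and 27. Cardiomyocyte markers stood at 15433 and 6212 CPM in these nuclei. Per UMI of the macrophage markers the ratio was −0.77 (−1.09 to −0.45), still below 0.

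The largest sub-clusters of either library were not the same one. Sub-cluster 0, led by Gatm, Neurl1a and the airway gene Bpifa1, had 9 CF-KI and 371 control nuclei, with members at 3398 and 6542 CPM. Sub-cluster 2, led by the muscle genes Pgam2, Hhatl and Cox6a2, had 201 and 27 nuclei, with 2391 and 6938. Sub-clusters 3, 5, 7 and 10 were led by endothelial, fibroblast and pericyte, cardiomyocyte and mesothelial genes, and their levels ran from 878 to 1449 in CF-KI and 1699 to 3750 in the control. Sub-cluster 8, led by the cell division genes Top2a and Mki67, had 1295 and 2570. Per macrophage marker UMI the ratio was −0.46 (−1.20 to 0.28) in sub-cluster 0, −1.73 (−2.09 to −1.37) in sub-cluster 2 and −0.06 (−0.54 to 0.42) in sub-cluster 8. The macrophage markers themselves stood at 8091 (CF-KI) and 11360 (control) CPM in sub-cluster 0 and 9441 and 8278 in sub-cluster 2. They were at 16519 and 21791 in sub-cluster 1, 2938 and 3164 in sub-cluster 4, and 3701 and 7048 in sub-cluster 8.

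**Figure D4:**
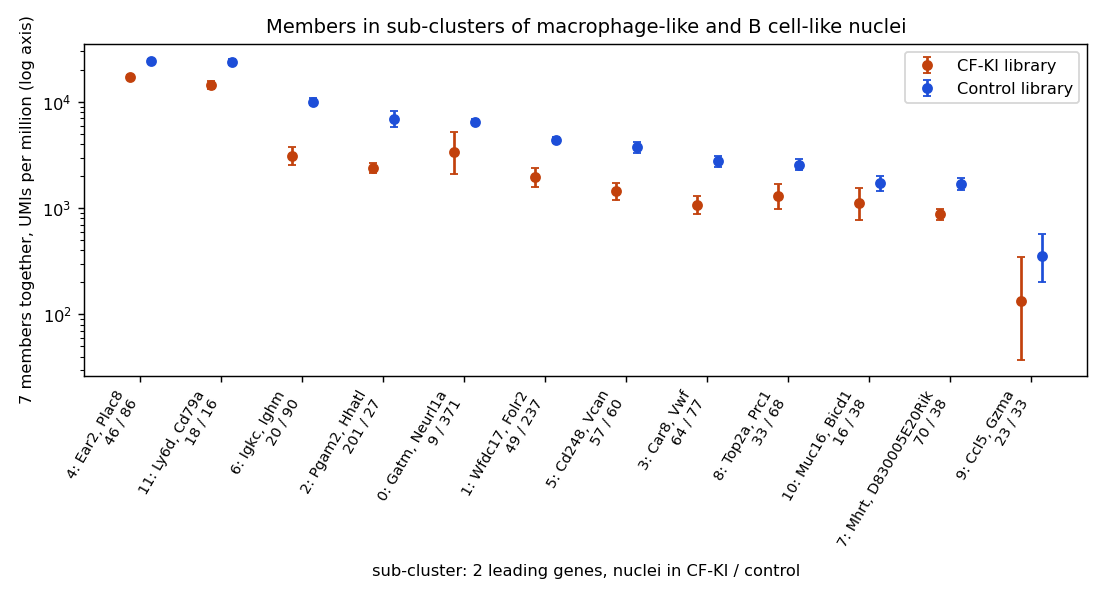
CPM of the 7 members together (log axis) in each of the 12 sub-clusters, ordered by the control level, with exact 95% Poisson intervals; the axis gives 2 leading genes and the nuclei in CF-KI and control. The CF-KI point is under the control point in all 12, with sub-clusters 4 and 11 highest.

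The summed ratio was below 0 in 12 of 12 sub-clusters, from −1.69 to −0.50 with a median of −1.08, and its interval lay below 0 in 11. Of the 5 sub-clusters also scaled to macrophage marker UMIs (0, 1, 2, 4 and 8), the intervals of 0 and 8 included 0, so this holds for CPM. The class-wide value mixes these with unequal weights. Without sub-cluster 4 the members stood at 1389 CPM in CF-KI and 4109 in the control, a log2 ratio of −1.56 (−1.66 to −1.47). Next, the 6 sub-clusters with genes of another class among their leading genes (0, 2, 3, 5, 7 and 10) were left out. This left 128 CF-KI and 393 control nuclei, with 9998 and 8312 CPM. Sub-clusters 0 and 2, left out here, stood above the kept sub-clusters 4 and 8 in macrophage marker CPM in both libraries. The log2 ratio was 0.27 (0.19 to 0.34), above 0, and sub-cluster 4 made up 35.9% and 21.9% of the nuclei left. With sub-cluster 0 kept it was 0.35. The 3 richest nuclei held 947 of the 1999 CF-KI member UMIs left, and without them the ratio was −0.43 (−0.53 to −0.33), or −0.33 with sub-cluster 0 kept. With the 3 nuclei kept and the 6 or 5 sub-clusters out, single members were above 0, apart from Ciita (−0.52 and −0.78). With the 6 out, the intervals of H2-DMa (−0.33 to 0.86), H2-DMb1 (−0.50 to 0.66) and Ciita (−1.30 to 0.20) included 0. Single members were not computed without the 3 nuclei. Over macrophage-like nuclei the summed ratio was thus below 0 in the whole class and above 0 without the 6 or 5 sub-clusters. It was below 0 again without the 3 nuclei too, and on the CPM scale below 0 in each sub-cluster. The cause of these turns was not tested. The 12 share the same pair of libraries and are not replicates of the difference.

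**Figure D5:**
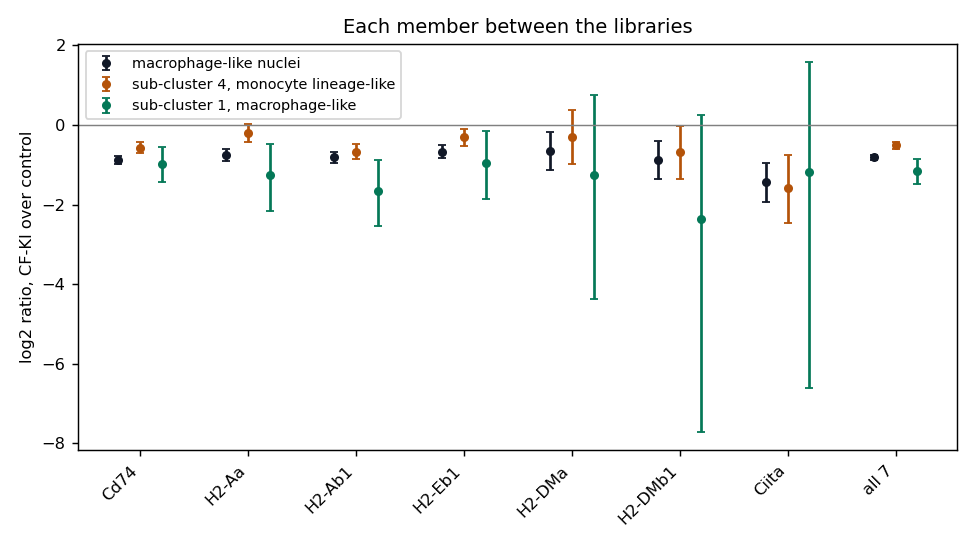
Log2 ratio of CF-KI over control (y axis) for each member and for the 7 together, in all macrophage-like nuclei, in sub-cluster 4 and in sub-cluster 1; bars are 95% conditional exact binomial intervals. Points lie below 0 throughout, but bars of H2-Aa and H2-DMa in sub-cluster 4 and of H2-DMa, H2-DMb1 and Ciita in sub-cluster 1 reach above it.

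B cell-like nuclei, which present antigen they bind through their own receptor, numbered 74 in CF-KI and 152 in the control. The members stood at 6005 (5567 to 6469) and 9708 (9280 to 10150) CPM, a log2 ratio of −0.69 (−0.82 to −0.57). Cd74 had 2916 and 4866, a ratio of −0.74 (−0.92 to −0.56), and H2-Ab1 805 and 1471, a ratio of −0.87 (−1.22 to −0.53). H2-Aa had 1272 and 1763, a ratio of −0.47 (−0.76 to −0.19), and H2-Eb1 744 and 1200, a ratio of −0.69. Ciita rested on 10 and 37 UMIs, a ratio of −1.10 (−2.28 to −0.07). H2-DMa (15 and 28 UMIs) and H2-DMb1 (6 and 16) could not be told apart between the libraries at this depth. Of 7 members, 4 were past 1.5-fold lower, where 28.7% of 2885 genes tested were lower and 16.0% higher. Among B cell markers, 7 of 11 were past the fold lower and 1 higher, with a median of −0.65 beside the members' −0.68 and −0.17 over all genes, though their sum was 18873 against 8748 CPM. Of 11 cardiomyocyte markers measured there, 5 were past it higher, with a sum of 15221 against 10476. Their part in the result was not tested.

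This class held other lymphocytes as well. Sub-cluster 11 (Cd79a, Ms4a1) had 18 and 16 nuclei with members at 14495 and 23916 CPM, a log2 ratio of −0.72 (−0.87 to −0.57). Sub-cluster 6 (Igkc, Ighm) had 20 and 90 nuclei with 3113 and 10076, a ratio of −1.69 (−2.01 to −1.39). T or NK cell-like sub-cluster 9 (Ccl5, Gzma), mouse cells that do not make class II, had 23 and 33 nuclei with 4 and 16 member UMIs, or 135 (36.7 to 345) and 352 (201 to 571) CPM. On so few UMIs both intervals reach into the range of the non-immune classes. The values themselves lay above the highest of these in the control (283) and, in CF-KI, below all but the erythroid-like one.

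Over all kept nuclei the members stood at 424 CPM in CF-KI and 690 in the control, a log2 ratio of −0.70 (−0.75 to −0.66). In a sum over a tissue, fewer class II-bearing nuclei and less message per nucleus cannot be told apart. Cd74 was 168 and 286, and Ciita 6.46 and 15.4 (90 and 245 UMIs).

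In cardiomyocyte-like and fibroblast-like nuclei the sums went the other way, at levels far below the immune classes. Cardiomyocyte-like nuclei had 162 in CF-KI and 103 in the control, a log2 ratio of 0.64 (0.50 to 0.79). Different clusters held most of the class in each library, and by cluster the ratio was −0.04 (cluster 4), 0.03 (cluster 5), −0.65 (cluster 7) and 0.82 (cluster 14, atrial genes). Cluster 7 had a median of 65.2% mitochondrial UMIs, 1793 of its nuclei were CF-KI and 233 control, and its members stood at 400.2 and 626 CPM. Fibroblast-like nuclei, the cells the Tcf21 driver aims at, had a ratio of 0.25 (0.09 to 0.41). By cluster it was −0.22 (cluster 0, mostly CF-KI), −0.34 (cluster 1, mostly control) and 0.27 (cluster 6), each with an interval that includes 0. At least 3 members were seen together in 2 of 3674 CF-KI and 7 of 3575 control fibroblast-like nuclei.

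The 7 genes followed one another over nucleus classes. Over 23 points, each a class of at least 50 nuclei in 1 library, Pearson's r of log2(CPM + 1) between members ran from 0.77 (H2-DMa with H2-DMb1) to 0.98 (H2-Aa with H2-Ab1). Ciita against Cd74 gave 0.90. Among 11068 genes with at least 200 UMIs, the 10 most like the members' sum were Ctss (0.97), Ptprc, Napsa, Dock2, Prkcb, Pou2f2, March1, Ikzf1, Bank1 and Stk17b (0.92). Ctss, the protease that cuts the invariant chain, stood at 227 and 380 CPM in macrophage-like nuclei and at 7.25 and 12.7 in endothelial-like ones. The points share 2 libraries and their free RNA, and the 2 immune classes set most of the range, so these values are a description.

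The other class II genes stood higher per UMI in B cell-like nuclei, with the 4 of them together at 286 and 482 CPM against 23.6 and 18.5 in macrophage-like ones (33 and 96 UMIs against 20 and 21). H2-Oa and H2-Ob form DO, a brake on DM, and stood at 34.6 and 156 CPM in CF-KI B cell-like nuclei and 65.3 and 211 in the control ones. In macrophage-like nuclei CF-KI had 2 and 5 UMIs of them and the control 3 and 9. H2-DMb2, the near copy of H2-DMb1, had 77.9 and 171 in B cell-like nuclei against 14.2 and 7.93 in macrophage-like ones. Its log2 ratio between the libraries in macrophage-like nuclei was 0.84 (−0.53 to 2.26), from 12 and 9 UMIs.

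Genes that act on either side of the members were taken from lists. Of 6 promoter-binding factors with 20 UMIs in macrophage-like nuclei (the RFX and NF-Y subunits and Creb1), 0 were past 1.5-fold either way, with a median log2 ratio of −0.22; Rfx5 had 12 and 13 UMIs. Irf8, a factor of the monocyte and dendritic lineage from the list of genes between the interferon gamma receptor and Ciita, chosen after its values were seen, stood past it lower, at 79.1 against 181 CPM (−1.20, −1.62 to −0.79). Ifng itself had 0 UMIs in the macrophage-like, B cell-like and endothelial-like nuclei of either library. These stand beside 15.4% of all genes lower in the same nuclei.

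Of 9 genes that cut the invariant chain or process peptides, 5 were past 1.5-fold lower in macrophage-like nuclei, where 15.4% of all genes were, with a median of −0.61. Of the 14 macrophage markers, 12 were past that fold lower in the same nuclei, with a median of −1.04. Ctss had 227 and 380 CPM (−0.74), the asparagine protease Lgmn 107 and 233 (−1.12), and Ctsb 528 and 900.1 (−0.77). Ifi30, a thiol reductase, had 98.0 and 149.7 (−0.61). March1, the ubiquitin ligase that takes class II off the surface, had 95.6 and 210.5 (−1.14). Of 4 costimulation genes measured, Icosl was past the fold lower (41.3 and 65.2), and Cd86 was 56.7 and 81.9.

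Both ligands of the Cd74 receptor stood on the other side. Mif had 51.9 CPM in CF-KI and 24.7 in the control, a log2 ratio of 1.07 (0.36 to 1.81), and its homologue Ddt 33.0 and 10.6, a ratio of 1.64 (0.62 to 2.75), from 28 and 12 UMIs. Both were past 1.5-fold higher, as were 16.2% of genes tested there, and cardiomyocyte markers were higher in the same nuclei, whose part was not tested. Cd44, the signalling partner of Cd74, had 136 and 144.

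MHC class I presents a cell's own peptides to CD8+ T cells. In macrophage-like nuclei H2-K1 had 523 and 714 CPM (−0.45), H2-D1 694 and 953 (−0.46) and B2m 452 and 535 (−0.24). Of 12 class I genes, 10 were below 0 and 4 were past 1.5-fold lower, where 15.4% of all genes were, with a median of −0.44: Tap1 (−1.20) and Tap2 (−0.74), which carry peptides into the endoplasmic reticulum, Nlrc5 (−1.12), the class I counterpart of Ciita, and H2-T23 (−0.73). In B cell-like nuclei 2 of 11 class I genes were past it lower and 3 higher, with a median of −0.04. The difference between the class II and class I medians was not tested.

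Positions are those of GENCODE vM21 on GRCm38. H2-Aa spans chr17:34282744-34287823 on the minus strand, and H2-Ab1 chr17:34257689-34269419, H2-Eb1 chr17:34305867-34316674, H2-DMa chr17:34119541-34139101 and H2-DMb1 chr17:34153072-34160230 lie on the plus strand. Ciita spans chr16:10480059-10528418 on the plus strand. On the opposite strand, H2-Eb1 overlaps Gm20513, Ciita overlaps Dexi, and H2-DMa overlaps Brd2, CR974462.4 and Gm20493. H2-DMa also overlaps CR974462.3 on its own strand. Whether the counting used strand is not given in the sources used here, so some UMIs of these genes could belong to their neighbours.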

How the data were processed

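Whole-number UMI counts per gene and barcode were deposited by the authors as 1 matrix a library, with no normalization found in the files. The tool is Cell Ranger 6.1.1, per the submitters' processing notes and the file headers, and the build mm10, per the same notes. Counts of rows with the same symbol were summed. Barcodes with at least 200 genes were kept, Scrublet doublets removed at its automatic limits, and both libraries clustered together (scanpy 1.11.5, 2000 variable genes, 30 principal components, 15 neighbours, Leiden resolution 0.8). Clusters were named "X-like" from marker lists. Macrophage-like and B cell-like nuclei were sub-clustered at resolution 1.0 without listed genes. Levels are CPM, UMIs per 1000000 non-mitochondrial UMIs, with exact 95% Poisson intervals. Ratios have conditional exact binomial intervals, shares Clopper-Pearson and their differences Wilson-type ones. Ratios per marker UMI have intervals from the 4 counts on the log scale. A count of 0 allows up to 3 UMIs. A gene was called past 1.5-fold, with 20 UMIs over both libraries and 0.5 UMI added. Free RNA was estimated as the level of 12 cardiomyocyte markers in a class over that in all kept barcodes. Alternative scalings came from edgeR 4.0.16 (TMM) and DESeq2 1.42.0 (median of ratios). Ratios and intervals were tested on simulated counts drawn independently for each gene. These leave out the crowding of member UMIs in single nuclei. All 7 members are given in classes of at least 50 nuclei in both libraries. Listed genes are given as counts, with those past the fold in macrophage-like nuclei named, at most 5 a list, and others named for context after their values were seen. The 10 most alike genes were taken by Pearson's r. The members and lists were chosen with earlier results of these data known. A result of the interferon gamma list is not reported here.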

Additional observations from a re-analysis of the deposited data

Results flagged for a closer look

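The members' sum lay on opposite sides of 0 in different nucleus classes. It was lower in CF-KI in macrophage-like nuclei (log2 −0.81) and higher in cardiomyocyte-like nuclei (0.64, 865 and 638 UMIs) and fibroblast-like nuclei (0.25, 629 and 675 UMIs). With 1 library a group, the difference between classes was not tested. In both of the higher classes the level was within the range of the other non-immune classes or below it, and within their largest clusters the intervals included 0 (clusters 0, 1, 4, 5 and 6), while cardiomyocyte cluster 7 was −0.65 (−0.92 to −0.36), and atrial cluster 14 was 0.82 (0.03 to 1.59) on 25 and 37 UMIs.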

How the results depend on the processing

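In macrophage-like nuclei the summed log2 ratio of −0.81 was −1.48 and −0.93 with at most 5% and 20% mitochondrial UMIs, −1.07 with doublets kept, −0.98 with each library clustered on its own, −1.04 thinned to 500 UMIs and −0.21 after free RNA was subtracted. Alternatives chosen after seeing the data gave −1.13 with 1 doublet score limit (0.35) for both libraries, −0.98 without the richest nucleus, −1.34 without the 3 richest and −1.56 without sub-cluster 4. They also gave 0.24 per macrophage marker UMI, and 0.27 and 0.35 without the 6 or 5 sub-clusters described above. The last 3 reversed the direction. With the 3 richest nuclei also out, these 3 settings gave −0.32, −0.43 and −0.33. Other settings stayed within the interval of the main value. Over all kept barcodes −0.70 became −1.18 and −0.76 at the 2 mitochondrial limits, −0.47 with at least 500 genes, −0.76 with doublets kept or with all deposited barcodes, −0.63 with TMM, −0.64 with median-of-ratios scaling and −1.25 thinned. In endothelial-like nuclei −0.24 (−0.50 to 0.02) became −1.10 (−1.92 to −0.36) at the 5% limit and −0.49 (−0.76 to −0.22) at the 20% limit. With 1 doublet score limit it was −0.28 (−0.54 to −0.03). The other intervals computed for this class included 0. A value after free RNA subtraction could not be computed there, since both levels came out below 0. The thinned share difference stayed within its interval under all 10 alternatives run for it. It was not computed without the 6 or 5 sub-clusters or without the 3 richest nuclei. Of 21 values of single members under these last 3 settings (6 out, 5 out, per marker UMI), 18 reversed: Cd74 0.17, 0.31 and 0.19, H2-Aa 0.48, 0.43 and 0.29, H2-Ab1 0.17, 0.30 and 0.24, H2-Eb1 0.52, 0.60 and 0.39, H2-DMa 0.27, 0.41 and 0.40, and H2-DMb1 0.093, 0.28 and 0.18. Ciita stayed below 0 (−0.52, −0.78 and −0.37). Intervals of H2-DMa and H2-DMb1 included 0 with the 6 or 5 out, as did that of Ciita with the 6 out. All of these values keep the 3 richest nuclei. Under the other alternatives run for them the members stayed below 0, nearest with free RNA subtracted (H2-Eb1 −0.06, H2-DMa −0.07); Ciita had no value at the 5% limit. The cause of these shifts was not tested. Depth limits Ciita and DM, which rest on 46 to 166 UMIs a library. No paired analysis was possible because each group has 1 library.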
